A study of Oryza sativa with 40 samples.

Results

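Mid-afternoon was compared with noon in the leaves of rice seedlings (Oryza sativa subsp. japonica var. Nipponbare). The members are the 8 of 40 arrays in the series that were titled seedling leaf and carry sample number 2, 3, 8 or 9. Leaves of 17-day-old seedlings were harvested every 4 h on 2 successive days, and each of the 10 seedling time points has 2 arrays given as biological replicates. Noon is the pair of samples at 12 h (day 1) and 36 h (day 2), and mid-afternoon the pair at 16 h and 40 h, which gives 4 arrays on each side. The labels name no treatment, and all seedlings stood on wet filter paper in a greenhouse (28 °C in the light, 25 °C in the dark), with 12 h of light and 12 h of dark and 83% relative humidity. The light period ran from clock hour 8 to clock hour 20, so all 8 samples were harvested in the light. The labels write the noon harvests as a morning hour and the study's list of time points places them at 12 h, which was used here. The other time points and the 20 flag leaf arrays, from older plants, were used only to show where the comparison differed. How many plants were pooled in an array is not given in the sources used here, so the p-values measure the spread between these arrays, which may be partly technical.

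Plants keep time with a circadian clock made of genes that repress each other in turn. In leaves of flowering plants, LHY and its relatives are transcribed around dawn, pseudo-response regulators follow in a wave through the day, and GI, PRR1 (TOC1 in Arabidopsis) and the PCL1 (LUX) family are transcribed towards dusk. Between noon and mid-afternoon the leaf is still fixing carbon, filling its starch and exporting sucrose, while the clock passes from its morning to its evening genes.

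Signals are MAS5 values on a linear scale, on which each array was scaled to a common target. Probe sets are the array's groups of short probes, mostly 1 or a few for a gene. The 8 arrays were alike in mean signal (709.4 to 732.7 over all rice probe sets) and in the number of probe sets at a signal of 100 or more (23491 to 24997). The ratio of 3' to 5' signal of the actin control, a sign of RNA or cDNA integrity, lay between 3.131 and 8.021 at noon and between 3.803 and 7.694 in the afternoon, and was higher in each replicate 1 array than in each replicate 2 array. The same ratio of the GAPDH control was 2.708 to 3.496 at noon and 2.981 to 3.956 in the afternoon. It was higher in replicate 1 at 12, 16 and 36 h but not at 40 h, where replicate 2 had the highest value of all 8 (3.956, against 3.066 in replicate 1).

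The labels of the 40 h arrays need a caution that touches every comparison below. The distance between 2 arrays was taken as the SD of their log2 differences over 24029 probe sets. In 9 of the 10 seedling time points the replicates were 0.33 to 0.38 apart, and at 40 h they were 0.58 apart. The library labelled 40 h replicate 2 was 0.23 from 16 h replicate 2, the smallest distance among all 190 pairs of seedling arrays. Only 112 probe sets differed more than 2-fold between that pair, against 355 to 474 between replicates of the other 9 time points. Same-numbered noon arrays of the 2 days were 0.35 and 0.36 apart, and no other pair from different times was closer than 0.35. The library labelled 40 h replicate 1 was nearest to 12 h replicate 1, at 0.48. At 40 h, 1782 probe sets (7.42%) differed more than 2-fold between the replicates, against 1.65%, 1.77% and 1.74% at 12, 16 and 36 h. The library labelled 40 h replicate 2 thus resembled a day 1 array more than its own replicate, whatever its label. Whether it holds day 1 RNA was not tested, and the results are given with and without it. Fits that keep both 16 h replicate 2 and 40 h replicate 2 count them as independent arrays. This includes the fits without 40 h replicate 1, so their p-values may be too small and their calls too many.

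**Figure D1:**
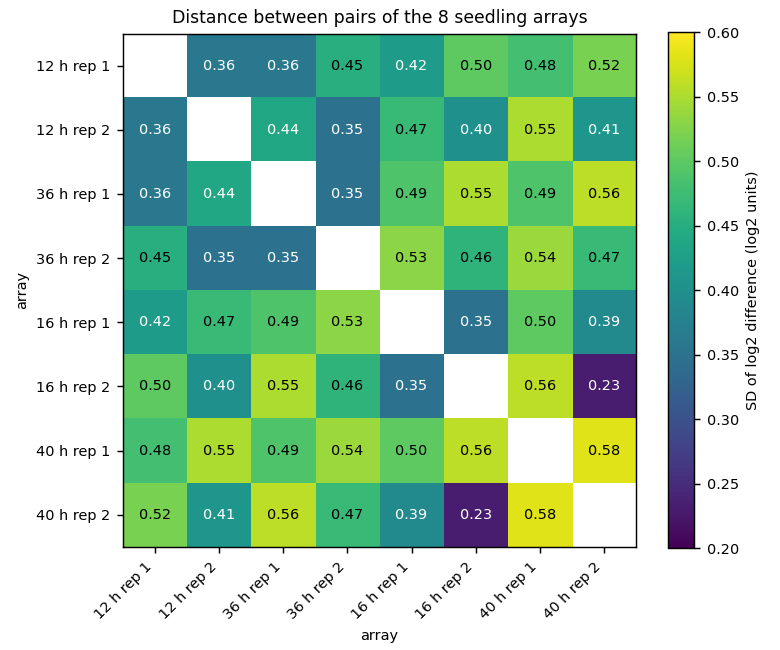
Distance between each pair of the 8 arrays, as the SD of the log2 difference over the probe sets tested; both axes list the arrays by time and replicate (rep), and the colour scale is in log2 units. The square for 16 h replicate 2 and 40 h replicate 2 is the darkest at 0.23, and the row of 40 h replicate 1 is the lightest, between 0.48 and 0.58.

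From noon to mid-afternoon 461 probe sets rose and 270 fell, of 24029 with a mean signal of at least 100 over the 8 arrays (1.92% and 1.12%, together 3.04%; limma with the sampling day as a block, adjusted p under 0.05). A rise of more than 2-fold was fitted for 177 of them and of more than 4-fold for 43, and a fall of these sizes for 68 and 11, on the scale of log2(signal + 32), which understates changes of dim genes. The 4 afternoon signals did not overlap the 4 noon signals for 713 of the 731 called probe sets, and for 2608 of all tested (10.9%, with 5.81% higher and 5.04% lower). Without the library labelled 40 h replicate 2, 309 probe sets rose and 200 fell, and 440 of the 731 calls (60.2%) remained. Without 40 h replicate 1, 889 rose and 625 fell, and 706 calls remained. Without both 40 h arrays, 333 rose and 192 fell, and 284 calls remained; all 731 kept their direction under these 3 settings. Leaving out another array gave 330 calls (12 h replicate 1), 292 (12 h replicate 2), 299 (16 h replicate 1), 316 (16 h replicate 2), 269 (36 h replicate 1) or 247 (36 h replicate 2). With the replicate number as a further block, 766 probe sets rose and 464 fell.

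The largest fitted change was the rise of the gene with ID 4341032 (which has no name or description in the annotation used here). Its noon signals were 21.7 and 43.0 on day 1 and 25.8 and 1.3 on day 2, and its afternoon signals were 2109.1 and 2164.2 on day 1 and 504.6 and 2071.6 on day 2. The gene was near background at noon and bright in every afternoon array, least so in 40 h replicate 1 (log2 difference 4.85 ± 0.40, adjusted p = 0.00087). A second unnamed gene (ID 4333719) rose from 423.3, 369.7, 205.8 and 197.6 to 4713.9, 4244.6, 4776.3 and 4184.9 (3.83 ± 0.18). Here and below, 4 signals in a row are given as day 1 replicates 1 and 2 and then day 2 replicates 1 and 2, and errors of log2 differences are standard errors. Of the called probe sets, 555 carried a gene ID but only 112 a name or a functional description, so the account by function below covers a minority of the calls.

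The clock list held 5 calls among 7 genes. OsPRR1, OsPCL1, GI and OsPRR95 rose, OsLHY fell, and OsPRR73 and OsPRR37 did not pass the test. Their median log2 difference was 1.28, against -0.02 over all genes; taking 1 probe set per gene, 308 of 14277 genes rose (2.16%) and 179 fell (1.25%). The 5 calls were made without 40 h replicate 1, without 40 h replicate 2, without both, and whichever of the 8 arrays was left out.

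OsLHY, a MYB-like repressor of the morning, had noon signals of 13736.4, 13779.3, 19752.6 and 18144.9. In the afternoon its signals were 3144.8, 3317.7, 4202.2 and 3260.5. Every afternoon array lay far below every noon array, and the fall was 2.21 ± 0.12 on the log2 scale (4.697-fold in mean signal, adjusted p = 0.00013). OsPRR1, the rice counterpart of TOC1, went the other way, from 415.4, 265.2, 211.0 and 185.6 to 2273.8, 1906.2, 1755.8 and 2135.8. The groups were widely apart on both days, and the log2 difference was 2.82 ± 0.18 (7.493-fold, adjusted p = 0.00023). GI, a large protein that links the clock to flowering in rice, had noon signals of 4919.6, 4893.3, 3053.7 and 2297.7 and afternoon signals of 12835.8, 10847.5, 11434.8 and 10624.0. The afternoon level was similar on both days and the noon level was lower on day 2 (1.65 ± 0.18, adjusted p = 0.0034).

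OsPRR95, a pseudo-response regulator of the middle of the wave, showed the same difference between the noons. Its signals were 7733.1, 7189.4, 4351.4 and 4138.1 at noon and 14271.2, 12892.3, 14251.5 and 13540.4 in the afternoon (1.28 ± 0.17, adjusted p = 0.0088). OsPCL1, the counterpart of LUX in the evening complex, rose from 201.3, 286.0, 80.3 and 132.4 to 1373.0, 1255.3, 388.9 and 1379.9. Its groups did not overlap, but 40 h replicate 1 had less than any other afternoon array (2.40 ± 0.34, adjusted p = 0.01, and 2.03 without 40 h replicate 2). OsPRR73 and OsPRR37, the earlier pseudo-response regulators of the wave, overlapped between noon and afternoon. OsPRR73 had 9133.5, 7994.7, 8256.8 and 7047.2 at noon and 7484.4, 7277.5, 10751.6 and 6959.9 in the afternoon, and OsPRR37 had a log2 difference of 0.32 ± 0.22 (adjusted p = 0.55).

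**Figure D2:**
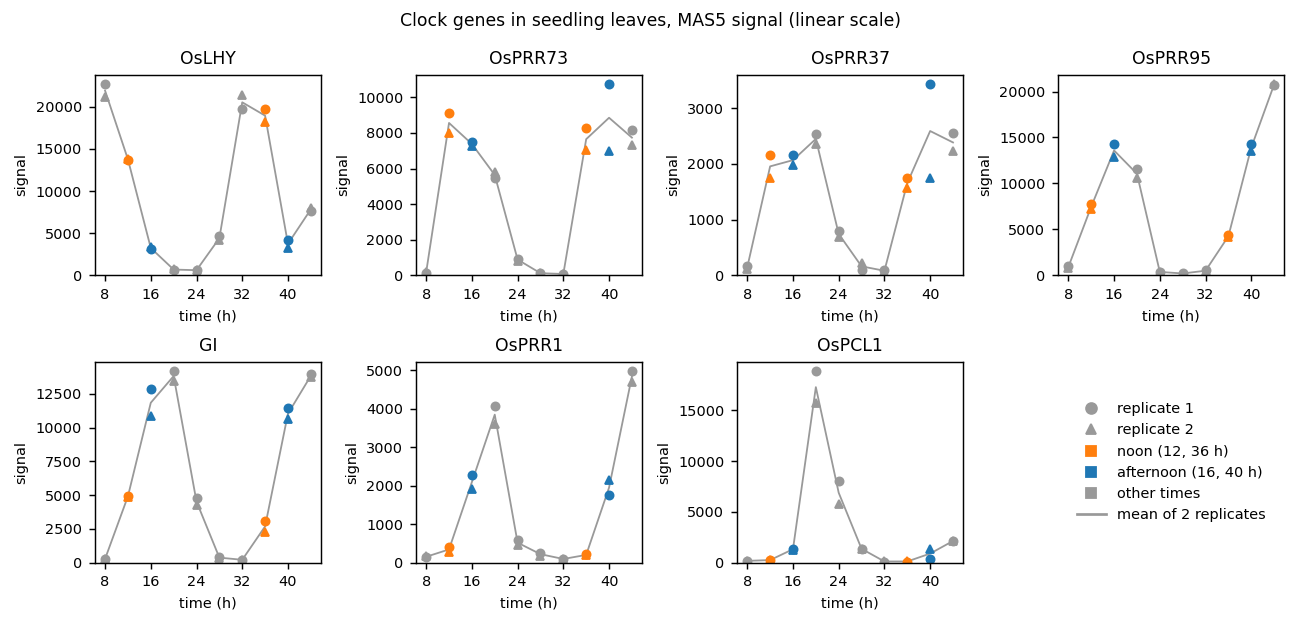
MAS5 signal (linear axis from 0) of the 7 clock genes against time in hours over the 2 days in seedling leaves; each point is an array, circles are replicate 1 and triangles replicate 2, and the grey line joins the means of 2 replicates. OsLHY falls between the orange noon points and the blue afternoon points on both days, while OsPRR95, GI, OsPRR1 and OsPCL1 rise.

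Beyond the clock, the largest rises among named genes were spread over metabolism, signalling and transport. BBD1, a bifunctional nuclease, rose 9.36-fold in mean signal, from 300.1, 273.1, 535.4 and 366.4 to 3673.6, 3712.3, 2897.4 and 3523.3 (log2 difference 3.16 ± 0.19). LOC_Os07g34570, annotated as a thiazole biosynthetic enzyme of the thiamine pathway in the chloroplast, was at 6361.9, 3996.5, 1191.5 and 1045.3 at noon and at 20697.7, 17561.6, 20146.7 and 18646.8 in the afternoon. Its afternoon level was alike on both days and its noon level was several-fold lower on day 2 (3.00 ± 0.41, adjusted p = 0.0088). GLT2, an NADH-dependent glutamate synthase of nitrogen assimilation, rose from 518.4, 346.9, 220.7 and 218.3 to 3314.7, 2602.1, 2131.8 and 2452.9 (2.95 ± 0.17). These 3 genes were higher in all 4 afternoon arrays and kept their calls whichever array was left out.

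OsPPT2, a phosphoenolpyruvate/phosphate translocator of the plastid envelope, rose from 1731.3, 1843.7, 1246.3 and 1203.4 to 4028.3, 4280.7, 4952.6 and 4565.3 (1.57 ± 0.16, adjusted p = 0.0021). LOC_Os07g07320, a glutathione S-transferase, had a mean of 3.535 times its noon signal (1.81 ± 0.16). OsITPK3, an inositol phosphate kinase, rose from a range of 796.5 to 1138.1 at noon to one of 2228.8 to 2973.9 in the afternoon, with the lowest afternoon value in 40 h replicate 1 (1.46 ± 0.12). AP25, an aspartic protease, rose by a log2 difference of 1.38 ± 0.20, and BASS3, of the bile acid:sodium symporter family, by 1.36 ± 0.21. In both, leaving out 36 h replicate 1 ended the call (adjusted p of 0.05 and 0.062), and for AP25 so did leaving out 36 h replicate 2 (0.051).

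Among the falls, OsCEBiP, the receptor that binds chitin fragments from fungi at the plasma membrane, fell by a similar amount on both days (-1.60 and -1.70). Its signals were 1460.2, 1440.7, 1812.3 and 1722.6 at noon and 445.7, 465.2, 563.8 and 484.1 in the afternoon (fell by 1.65 ± 0.10 on the log2 scale, adjusted p = 0.00013). SAT1, a serine acetyltransferase of cysteine synthesis, fell from 2605.6, 2699.1, 1786.1 and 1956.2 to 858.1, 865.3, 1072.3 and 787.5, and 1 of its 2 probe sets was called. 4CL.2, a 4-coumarate:CoA ligase of the phenylpropanoid pathway, had a mean of 505.5 ± 102.8 at noon and 231.6 ± 40.95 in the afternoon (SD, n = 4 each). LOC_Os08g34210, an NADP-dependent glyceraldehyde-3-phosphate dehydrogenase, fell by 0.84 ± 0.10, LOC_Os09g06464, annotated as a CONSTANS-like zinc finger protein, by 1.01 ± 0.14, and CLE202, a precursor of a small signalling peptide, by 0.85 ± 0.12. None of these falls lost its call when 1 array was left out.

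The remaining large falls rested on fewer arrays. LOC_Os02g01590, annotated as a beta-fructofuranosidase (an enzyme that splits sucrose), went from 2044.4, 2196.2, 1156.8 and 1392.9 to 200.4, 342.0, 800.0 and 459.3. The groups did not overlap. The log2 difference was -2.87 on day 1 and -1.03 on day 2, the days were not shown to differ (adjusted p = 0.89), and the call (adjusted p = 0.037) was lost without 40 h replicate 2 (adjusted p = 0.081) and without each other array except 40 h replicate 1 (highest 0.11). GER6, a germin-like protein, fell by 0.97 ± 0.20 and stayed called only when 40 h replicate 2 was left out (adjusted p = 0.01, against 0.058 to 0.14 without another array). CPK9, a calcium-dependent protein kinase, fell by 0.97 ± 0.19 and lost its call without 40 h replicate 2 (0.084), without either noon array of day 1 (0.092 and 0.12) or day 2 (0.074 and 0.12), and without 16 h replicate 1 (0.093).

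**Figure D3:**
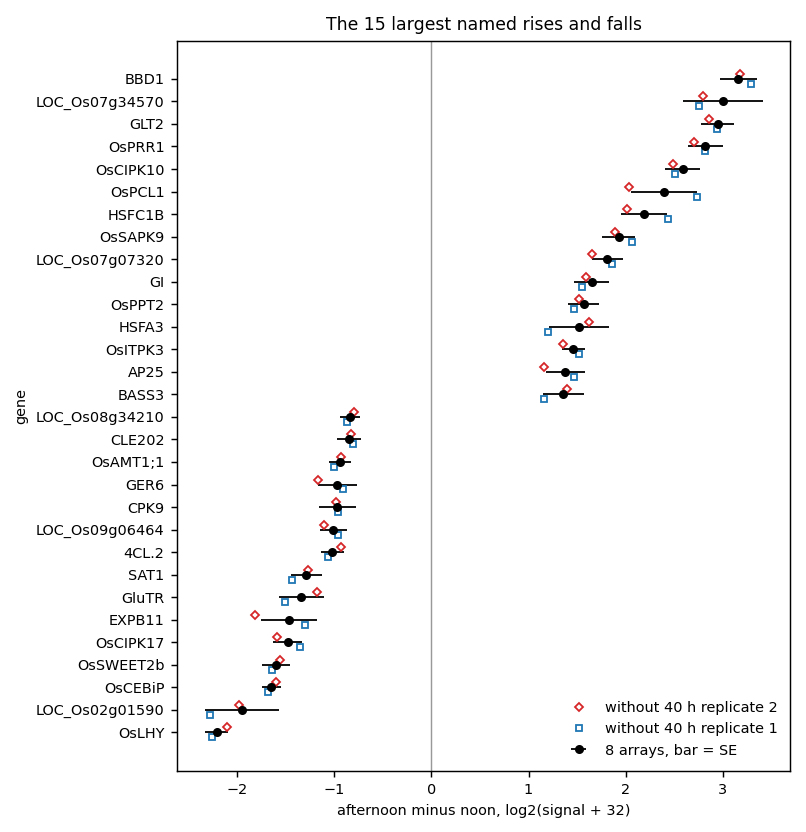
Afternoon minus noon difference in log2(signal + 32) for the 15 named genes with the largest rises and the 15 with the largest falls; black points and bars are the estimate and SE from 8 arrays, and open red and blue marks are the estimates without 1 of the 40 h arrays. The marks stay on the same side of 0 for all 30 genes, from a rise of 3.16 for BBD1 to a fall of 2.21 for OsLHY.

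The lists below are to be read against the calls over all genes, 2.16% higher and 1.25% lower, and a count of 0 to 2 does not set a list apart from them. None of the 13 genes of light harvesting and electron transport passed the test (median log2 difference -0.01). OsPSAG, a subunit of photosystem I, came nearest, with 8295.4, 8961.4, 8898.4 and 7501.6 at noon and 5317.5, 5574.8, 6829.0 and 5109.3 in the afternoon (-0.56 ± 0.13, adjusted p = 0.06, and 0.012 without 40 h replicate 1). With the replicate block it was called (adjusted p = 0.042). LIR1, a small chloroplast protein named for its induction by light, was at 17870.3 to 22585.5 at noon and 23507.4 to 28833.3 in the afternoon (0.35 ± 0.12, adjusted p = 0.2). RCABP89, a chlorophyll a/b-binding protein, overlapped fully between the groups, with a difference of -0.02 ± 0.12. For carbon fixation and photorespiration 1 of 10 genes fell and none rose.

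That gene was OsPPDKB, pyruvate orthophosphate dikinase. Its noon signals were 7064.7, 6859.4, 6384.2 and 6457.8, and its afternoon signals were 3496.3, 3335.2, 5017.3 and 3364.5. The groups were apart, with 40 h replicate 1 between them (-0.83 ± 0.15, adjusted p = 0.026), and the call was lost without 40 h replicate 2 (adjusted p = 0.063) and without each array of 12, 16 or 36 h (0.078 to 0.096).

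Of 20 genes of chlorophyll synthesis and breakdown, 1 fell and none rose (median -0.09), and 2 fell with the replicate block. GluTR, glutamyl-tRNA reductase at the entry of tetrapyrrole synthesis, had noon signals of 2567.8, 1976.8, 2794.7 and 1863.1 and afternoon signals of 1066.8, 696.0, 1188.5 and 663.9. In each time point replicate 1 was above replicate 2, and both afternoons were below both noons (-1.34 ± 0.23, adjusted p = 0.022, and 0.0011 with the replicate block). Leaving out an array ended this call for 12 h replicate 1 (0.079), 12 h replicate 2 (0.06), 36 h replicate 1 (0.082) and 16 h replicate 2 (0.075). PORA, a light-dependent protochlorophyllide oxidoreductase, was at 9633.0, 9536.2, 7383.3 and 6952.4 at noon and 5147.8, 4151.3, 6559.6 and 4101.8 in the afternoon (-0.76 ± 0.19, adjusted p = 0.082). Its difference was past the threshold without 40 h replicate 1 (-0.95, adjusted p = 0.0057) and with the replicate block (adjusted p = 0.048), and not without 40 h replicate 2 (0.18).

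In the starch lists no gene was called in either direction, with 6 genes of synthesis and 5 of breakdown tested. LOC_Os06g30310 and LOC_Os07g22930, described below, were not in these lists and are not in their counts. DPE2, a glucanotransferase that handles maltose from starch breakdown, had a difference of 0.16 ± 0.12, and LOC_Os06g30310, annotated as the glucan water dikinase that marks starch for breakdown, of 0.41 ± 0.16. LOC_Os07g22930, annotated as a granule-bound starch synthase, had 2099.7, 1740.2, 3930.2 and 3400.6 at noon and 1202.2, 915.1, 1876.8 and 798.8 in the afternoon. Within each day the afternoon was lower, but the higher afternoon array of day 2 overlapped the noon of day 1 (-1.20 ± 0.27, adjusted p = 0.062). It passed the threshold without 40 h replicate 1 (-1.37, adjusted p = 0.031), without 40 h replicate 2 (-0.89, adjusted p = 0.029) and with the replicate block (adjusted p = 0.026).

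Sucrose and sugar transport had calls in both directions, 2 up and 2 down among 33 genes (median 0.05). LOC_Os02g01590, the called beta-fructofuranosidase described above, was not in this list. OsSWEET2b, a sugar transporter of the SWEET family, fell from 2444.7, 2175.0, 2845.4 and 2286.3 to 871.6, 630.7, 880.7 and 759.6. Its groups were far apart on both days with almost the same log2 difference, -1.60 ± 0.21 each, and both of its probe sets were called (adjusted p = 0.001). OsSWEET1b fell from a mean of 3044.5 to 1734.6 (-0.81 ± 0.15) and stayed called only without 40 h replicate 1, while its relative OsSWEET1a rose from a range of 1594.9 to 2060.6 at noon to one of 2552.6 to 3605.4 in the afternoon (0.72 ± 0.10). OsSUS1, a sucrose synthase, rose from a range of 1865.6 to 2156.4 at noon to one of 3050.4 to 3464.6 (0.68 ± 0.09, adjusted p = 0.0096). OsSWEET1a and OsSUS1 each went to an adjusted p of 0.051 when 36 h replicate 2 was left out. None of the 4 trehalose genes was called.

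In calcium signalling, 4 of 63 genes rose and 5 fell (median -0.08), and the 2 largest of these changes, in opposite directions, were both CBL-interacting protein kinases, which calcium sensors of the CBL family switch on. OsCIPK10 rose from 735.2, 669.7, 378.5 and 310.1 to 3400.5, 3095.7, 2923.8 and 3056.5. All of its 4 probe sets were called, and the 4 afternoon arrays were alike (2.59 ± 0.18, adjusted p = 0.00042). OsCIPK17 fell from 2789.5, 2537.7, 2328.9 and 2232.4 to 1040.9, 885.4, 621.5 and 968.8 (-1.48 ± 0.15, adjusted p = 0.0021). OsCIPK06 fell from a range of 853.2 to 1030.0 at noon to one of 504.1 to 582.0, and CML1, a calmodulin-like protein, rose from a range of 2248.9 to 3709.0 at noon to one of 5913.6 to 7467.7. The CML1 call was lost without 36 h replicate 2 (adjusted p = 0.051). Without 40 h replicate 2, 3 genes of calcium signalling rose and 3 fell.

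The hormone lists had 0 to 2 calls each. Of 26 genes of abscisic acid, 1 rose: OsSAPK9, a SnRK2 protein kinase of abscisic acid signalling, from 131.5, 93.1, 99.8 and 100.8 to 690.8, 526.9, 339.0 and 478.5 (1.93 ± 0.17, adjusted p = 0.001). Its afternoon signals were all above its noon signals, and the call held without either 40 h array. Among 29 jasmonate genes 1 rose: OsTIFY11a, a JAZ repressor, from 287.8, 255.3, 187.7 and 131.1 to 399.8, 377.8, 374.7 and 408.8 (0.82 ± 0.17, adjusted p = 0.045, and 0.058 to 0.13 without any 1 array). OsTIFY10c, another JAZ protein, was at 2311.7, 2428.9 and 2645.7 in 3 afternoon arrays and at 765.4 in 40 h replicate 1, against 486.5 to 825.9 at noon. It was not called with 8 arrays (1.49 ± 0.39, adjusted p = 0.097) or without 40 h replicate 2 (adjusted p = 0.2), and was called without 40 h replicate 1 (adjusted p = 0.00044).

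Of 44 auxin genes, IAA1, an Aux/IAA repressor, and ARF9, an auxin response factor, fell (-0.56 ± 0.09 and -0.65 ± 0.12). The 4 signals of IAA1 were between 4805.2 and 5563.0 at noon and between 3255.9 and 3825.2 in the afternoon. Both genes kept their calls without either 40 h array and lost them without any array of 12, 16 or 36 h (adjusted p of 0.067 to 0.081 for IAA1 and 0.072 to 0.12 for ARF9). None of 14 gibberellin and diterpene genes, 9 ethylene genes or 22 cytokinin genes was called. When 40 h replicate 1 was left out, 3 abscisic acid and 3 jasmonate genes rose, 2 cytokinin genes fell, 1 ethylene gene rose and 1 gene of the gibberellin and diterpene list fell. With the replicate block 2 abscisic acid and 2 jasmonate genes rose and 3 auxin genes fell. Of 16 genes of photoperiod and light reception, DTH8, a subunit of a CCAAT-binding factor that acts on heading date, rose from a range of 88.6 to 142.6 at noon to one of 175.6 to 235.9 (0.70 ± 0.12, adjusted p = 0.022, 0.054 without 40 h replicate 2, and up to 0.086 without 12 h replicate 1, 16 h replicate 2 or either 36 h array).

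Of 21 aquaporins, the water channels of membranes, 3 rose and none fell. OsTIP4;1, a channel of the vacuole membrane, rose from 10737.3, 9480.5, 9302.6 and 8782.3 to 17003.2, 15961.0, 14993.3 and 16585.9 (0.75 ± 0.10, adjusted p = 0.0075). OsPIP2;7, a plasma membrane channel, rose from a range of 4096.2 to 5764.6 at noon to one of 8577.4 to 10926.8, and OsTIP3 from a range of 69.7 to 161.3 at noon to one of 185.8 to 301.8. The groups of all 3 genes were apart. The median of the list was -0.04, and the same 3 to 0 count was found without 40 h replicate 2. Without 40 h replicate 1 the count was 3 higher and 2 lower, and without both 40 h arrays none was called (adjusted p of 0.053 to 0.062 for the 3 genes).

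Among nutrient genes the calls were 1 in the nitrogen list and 3 in the list of phosphate and metal transport. GLT2, the glutamate synthase that rose by 2.95, was not in the nitrogen list and is not in its count. OsAMT1;1, an ammonium transporter, was the only call among 16 nitrogen genes, falling from 8688.3, 10351.9, 8911.6 and 9392.3 to 4458.8, 4587.3, 5487.0 and 4839.7 (-0.94 ± 0.11, adjusted p = 0.0046). The groups were far apart and alike on both days. Of 27 genes of phosphate and metal transport, OsZIP4, a zinc transporter, rose from a range of 181.4 to 277.9 at noon to one of 447.7 to 596.7 (1.07 ± 0.15), YSL16, a transporter of metal-nicotianamine complexes, rose by 0.61 ± 0.11, and OsZIP1, another ZIP transporter, fell by 0.55 ± 0.12. Without 40 h replicate 2 YSL16 and OsZIP1 were not called (adjusted p of 0.063 and 0.051), and both also lost their calls without any array of 12, 16 or 36 h (highest 0.097 and 0.15). With the replicate block 2 nitrogen genes fell, and 2 genes of phosphate and metal transport rose and 3 fell.

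Of 37 cell wall genes, 2 fell and none rose, and both were beta-expansins, proteins that loosen the wall. EXPB11 was at 1582.7, 1497.1, 544.0 and 616.2 at noon and at 425.0, 360.3, 155.3 and 428.3 in the afternoon. The groups did not overlap, and both noon arrays and 40 h replicate 1 were lower on day 2 than the arrays of day 1 (-1.47 ± 0.29, adjusted p = 0.036). EXPB11 was called without either 40 h array (-1.82 without replicate 2, -1.30 without replicate 1) and lost its call without any array of 12, 16 or 36 h (0.081 to 0.12). EXPB7 fell from a range of 647.3 to 871.2 at noon to one of 411.2 to 504.9 (-0.66 ± 0.11), and lost its call without 40 h replicate 2 (adjusted p = 0.051) and without 5 of the other arrays, 16 h replicate 2 and 40 h replicate 1 excepted (highest 0.092).

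Of 33 heat shock genes 3 rose, a larger share than the 2.16% over all genes, and all were transcription factors rather than chaperones. HSFC1B rose from 60.6, 101.0, 68.7 and 63.7 to 462.2, 621.6, 242.9 and 550.5 (2.19 ± 0.24, adjusted p = 0.0036), and its call held whichever array was left out. HSFA3 was at 280.0, 196.0, 79.9 and 132.6 at noon and at 544.6, 431.7, 800.7 and 369.5 in the afternoon, highest in 40 h replicate 1 (1.52 ± 0.31). HSFB4B rose from a range of 88.7 to 125.9 at noon to one of 162.1 to 218.9. HSFA3 and HSFB4B were not called without 40 h replicate 2 (adjusted p of 0.077 and 0.075) or without most other arrays (highest 0.13 and 0.12). Without both 40 h arrays 1 heat shock gene rose and 3 fell.

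OsPDIL1-1, a disulphide isomerase of the endoplasmic reticulum, was the only call among 18 chaperone genes of that compartment, rising from a range of 3161.6 to 4273.6 at noon to one of 4955.5 to 8109.0 (0.84 ± 0.14), and it lost its call without either 12 h array, either 16 h array or 36 h replicate 2 (adjusted p of 0.051 to 0.073). None of the 25 ribosomal protein genes, 15 proteasome genes or 22 antioxidant genes was called. The ribosomal protein genes lay close together, 23 of 25 with a fitted difference above 0, none above 0.23, and a median of 0.16. Over all genes 6544 of 14277 were above 0. The ribosomal median was 0.24 on day 1 and 0.10 on day 2, and at 40 h replicate 2 was above replicate 1 by a median of 0.31.

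Dehydration genes separated the 40 h replicates. None of the 14 genes was called with 8 arrays, 3 rose without 40 h replicate 1, 3 without both 40 h arrays and none without 40 h replicate 2. RAB21, a dehydrin, had noon signals of 9331.8, 6657.3, 5775.6 and 5649.2, and afternoon signals of 18232.7, 13841.3, 399.6 and 13280.3. The low value is 40 h replicate 1, 33.23-fold below 40 h replicate 2, while the other 3 afternoon arrays lie above every noon array. RAB16B, a second dehydrin, was at 790.0 to 915.7 at noon and at 2620.1, 2312.2, 98.3 and 2499.6 in the afternoon. RAB16C, also a dehydrin, was at 281.9 to 550.4 at noon and at 1639.4, 1139.4, 181.6 and 1285.2 in the afternoon. LEA19, a late embryogenesis abundant protein, had 9543.1, 9567.0, 509.0 and 9941.1 in the afternoon, against 4228.0 to 7688.6 at noon. Such low values were also seen at 20 h of day 1 in both replicates. There RAB21 was at 211.8 and 176.5, RAB16B at 58.3 and 26.9, RAB16C at 98.3 and 182.0, and LEA19 at 236.1 and 217.7. At 44 h of day 2, RAB21 was at 16997.0 and 13597.2 and LEA19 at 4015.9 and 3423.7. What lies behind these values was not tested.

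In all 4 genes the afternoon was thus above noon on day 1 in both replicates, and on day 2 only in the library labelled 40 h replicate 2, the array that was closest to 16 h replicate 2. With 8 arrays the log2 differences were -0.13 ± 0.96 for RAB21, 0.45 ± 0.84 for RAB16B, 1.02 ± 0.51 for RAB16C and -0.28 ± 0.77 for LEA19. Without 40 h replicate 1 they were 1.09, 1.52, 1.64 and 0.69 (adjusted p of 0.01, 0.00076, 0.0047 and 0.065). Without 40 h replicate 2 they were -0.89, -0.19, 0.59 and -0.99, none past the threshold. At 40 h, 5 of the 14 genes differed more than 2-fold between replicates, and none did at 12, 16 or 36 h. Over all genes, with 1 probe set each, 752 of 14277 did at 40 h. That the 40 h replicates differ in dehydration genes was known before this list was counted, so the count is a description and not a test.

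The other members with a wide gap at 40 h were dimmer or differed less. ABA8OX1, an abscisic acid 8'-hydroxylase that breaks the hormone down, was at 101.2 in 40 h replicate 1 and 329.8 in replicate 2, and rab25 at 81.2 and 264.0. ML (salT), a mannose-binding lectin induced by salt and drought, was at 7052.9 and 13663.3. OsPM19L1, of a plasma membrane protein family linked to abscisic acid, went the other way, with 5258.5 in replicate 1 and 2734.8 in replicate 2. With 2 arrays these gaps have no replicate check.

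**Figure D4:**
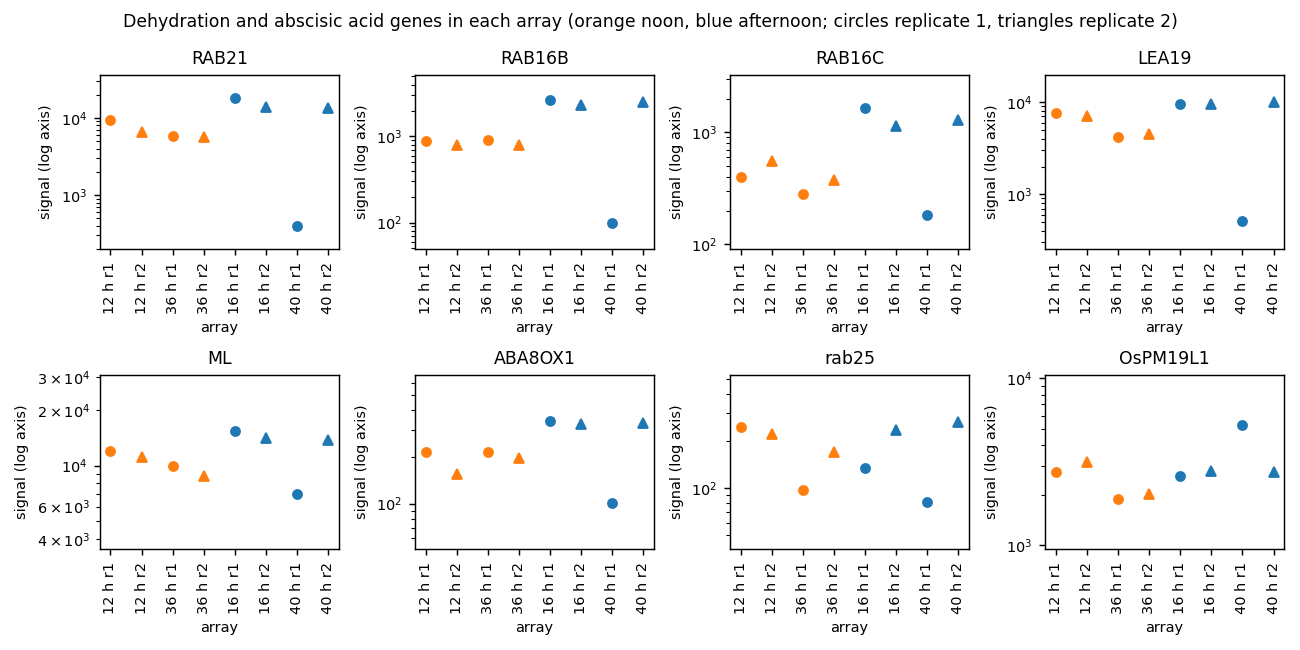
MAS5 signal (log axis) of 8 dehydration and abscisic acid genes in each of the 8 arrays, labelled by time and replicate (r1, r2); orange is noon and blue afternoon, circles are replicate 1 and triangles replicate 2. 40 h replicate 1 lies apart from the other 3 afternoon arrays for RAB21 (399.6 against 13280.3 to 18232.7), RAB16B, RAB16C and LEA19.

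The 2 days gave the same direction for every called probe set. The 461 that rose had a median log2 difference of 0.81 on day 1 and 0.94 on day 2, and the 270 that fell had -0.75 and -0.78. Since these probe sets were called on both days together, the shared direction follows in part from the choice. Within day 1, 82 probe sets rose and 39 fell (0.504% called). The day 1 differences do not use the 40 h signals, but the spread behind their tests was pooled over all 4 time points, 40 h included. Among the calls were OsLHY (-2.08 ± 0.16, adjusted p = 0.0054), OsPRR1 (2.54 ± 0.23), BBD1 (3.55 ± 0.20), GLT2 (2.70 ± 0.22), OsCIPK10 (2.16 ± 0.15) and OsCEBiP (-1.60 ± 0.14). Leaving out an array of 12 or 16 h left 0 or 1 calls within day 1. Within day 2, 179 rose and 70 fell (1.04%), 448 and 222 without 40 h replicate 1, and 407 and 359 without 40 h replicate 2. Leaving out 36 h replicate 1 or 2 left 32 and 39 calls.

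The difference between the days was tested directly. On simulated data this test recovered 0% of log2 differences of 1 and 24% of differences of 2, so few calls do not show that the days were alike. Only 1 probe set passed, that of the unnamed gene with ID 4343628 (0.00416% of those tested, and 1091 at an unadjusted p under 0.05). Its signals at 12 h were 491.7 and 533.7, at 36 h 9.1 and 5.6, at 16 h 522.2 and 520.2, and at 40 h 443.1 and 424.2. Only the noon of day 2 was low, and the difference between the days was 3.54 (adjusted p = 0.007). Leaving out an array of 12, 16 or 36 h ended this call, leaving out 40 h replicate 1 gave 8 calls, and leaving out 40 h replicate 2 gave 85, of which 64 had a lower difference on day 2. Among those 85, and picked after their values were seen, were RAB21 (-4.74, adjusted p = 0.015), RAB16B (-4.28), LEA19 (-3.39) and OsTIFY10c (-2.16), whose afternoon of day 2 then rested on 40 h replicate 1 alone and whose spread was pooled from the other time points.

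The other time points gave the course of these genes over the day. Of the 461 that rose, the mean over days was highest at 16 h for 188 (40.8%) and at the following time point, dusk at 20 h, for 198 (43%), against 14.2% and 16.4% of all tested. Of the 270 that fell, it was highest at dawn (8 h) for 152 (56.3%) and at noon for 71 (26.3%), against 15.6% and 13.2% of all tested. These counts reuse the noon and afternoon arrays that made the calls, which fixes in part how many peak at noon or at 16 h. On the 8 arrays of dawn and dusk, which the calls did not use, 430 of the 461 (93.3%) were higher at dusk than at dawn, as were 46.7% of all tested, and 250 of the 270 (92.6%) were lower, as were 53.3% of all tested.

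The interval from mid-afternoon to dusk was not alike on the 2 days. OsPCL1 went from a mean of 1314.2 at 16 h to 17297.2 at 20 h on day 1, and from 884.4 at 40 h to 2126.4 at 44 h on day 2. OsSAPK9 went from 608.8 to 4884.4 on day 1 and from 408.8 to 2340.2 on day 2. Both were thus higher at dusk on each day, with a lower dusk on day 2. OsLHY went from 3231.2 to 674.5 on day 1 and from 3731.3 to 7819.9 on day 2, so it was lower at dusk only on the first day. OsCEBiP had 6615.6 at 8 h, 455.4 at 16 h and 244.3 at 20 h, and on day 2 it had 4741.7 at 32 h, 524.0 at 40 h and 520.4 at 44 h. GLT2 was lower at dusk than at mid-afternoon on day 1 (2958.4, then 1981.7) and higher on day 2 (2292.4, then 2777.7). AP25 had 1991.9 at 8 h, 1174.4 at 12 h, 2467.3 at 16 h and 406.2 at 20 h on day 1, and 438.9, 549.6, 1945.6 and 1201.5 at the same hours of day 2. Its high dawn was seen on day 1 only. With 2 arrays at each time, these differences between the dusks were not tested.

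In flag leaves the same 4 h brought larger changes. Over 24351 probe sets tested in both leaves, seedling leaves had a mean difference of more than 2-fold for 376 (1.54%) and flag leaves for 2727 (11.2%). The test of the difference between leaves called 3424 probe sets (14.1%), with the seedling change above the flag change for 1484 and below it for 1940. Leaf kind, plant age and growth conditions differ together here and cannot be told apart. Among seedling calls tested in both leaves, 398 of 446 rises and 227 of 260 falls had the same sign in flag leaves. No same-sign share over all tested probe sets is given beside these counts. The leaf difference was past the threshold for 172 of these rises and 116 of these falls. That test reuses the seedling arrays that made the calls, so the 172 and 116 follow in part from the choice. The same holds for the called genes named below.

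The 5 called clock genes had the same sign in both leaves, and 3 of them differed in size. OsLHY fell by 3.75 ± 0.12 in flag leaves and by 2.21 in seedling leaves (difference 1.54 ± 0.16, adjusted p = 0.0001). GI rose by 0.54 in flag leaves and 1.65 in seedling leaves (difference 1.11 ± 0.25). OsPRR95 had 0.24 in flag leaves, not past the threshold, against 1.28 (difference 1.04 ± 0.21). For OsPRR1, OsPCL1, BBD1 and OsCIPK10 the leaf difference did not pass the test (0.74 ± 0.31, -0.30 ± 0.40, 0.63 ± 0.36 and 0.20 ± 0.31). OsSWEET2b fell by 3.99 in flag leaves (difference 2.39 ± 0.22), and LOC_Os02g01590 had -4.78 (difference 2.84 ± 0.54).

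Of the 6 named genes with the largest leaf differences, OsTIP4;1 was called in seedling leaves and the other 5 were not with 8 arrays and no replicate block. PORA had a seedling difference of -0.76 and a flag leaf difference of 3.78, so the leaves differed by -4.54 ± 0.59 (adjusted p = 0.00038). OsHox24, a homeodomain-leucine zipper factor, was at 171.1 to 324.7 at noon and 156.5 to 226.6 in the afternoon in seedling leaves, and fell by 4.61 in flag leaves (difference 4.16 ± 0.52). OsCRSH2, a calcium-activated enzyme of (p)ppGpp synthesis in the chloroplast, had 0.50 ± 0.19 in seedling leaves and -3.29 ± 0.30 in flag leaves, IMCEL2 -0.27 and -3.84, and OsVIT2, a vacuolar iron transporter, 0.42 and -2.63. OsTIP4;1 rose in both leaves, by 0.75 and by 3.68 (difference -2.92 ± 0.32). Of 25 ribosomal protein genes the leaf difference was below 0 and past the threshold for 15, with medians of 0.16 in seedling and 0.91 in flag leaves, against 7.97% of all probe sets. Of 26 abscisic acid genes it was above 0 and past the threshold for 13, with a flag leaf median of -0.65, against 6.09% of all probe sets.

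**Figure D5:**
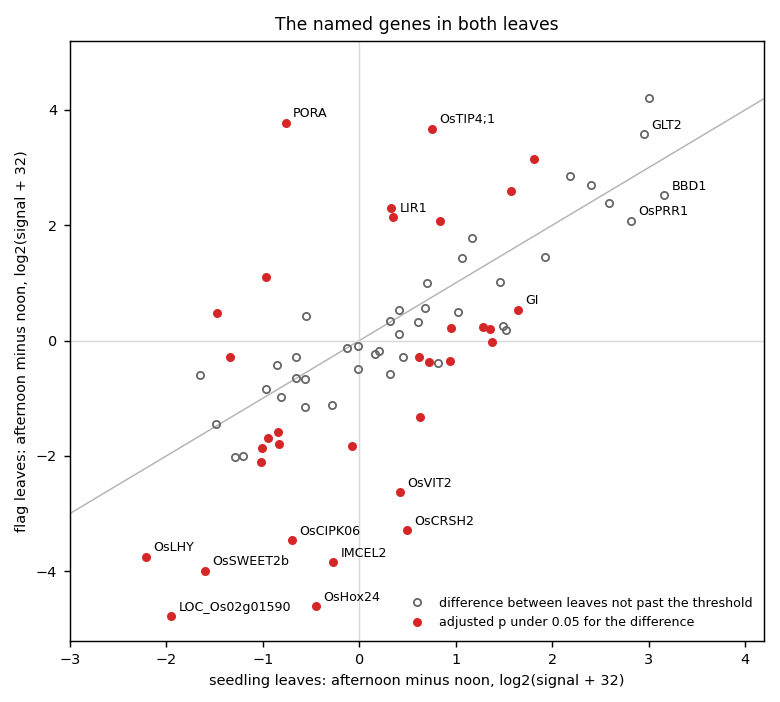
Afternoon minus noon difference in log2(signal + 32) in seedling leaves (horizontal axis) and flag leaves (vertical axis) for the named genes; each point is a gene, filled red where the difference between leaves passed the test, and the grey diagonal marks equal change. PORA and OsTIP4;1 lie high above the diagonal and OsHox24, OsCRSH2, IMCEL2 and OsVIT2 far below it, while GLT2, BBD1 and OsPRR1 are near it.

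Markers of the leaf and of other tissues were summed in each array, a description with no reference tissue beside it. The signal of 6 leaf blade markers (chlorophyll a/b-binding proteins, Rubisco small subunit and Rubisco activase) summed to 115994.0 to 136092.5 at noon and 109906.6 to 144703.1 in the afternoon. The 15 markers of dividing cells summed to 1481.1 to 1840.1 at noon and 1432.2 to 1952.6 in the afternoon, with 12 of them below a mean signal of 100. The 10 seed storage markers summed to 4369.4 to 4978.9 and 4165.9 to 5136.1, with 7 below that mean. The 5 root markers summed to 29966.8 to 42292.4 and 35052.2 to 43931.9, carried by the nicotianamine synthases NAS1 (18321.4 to 25742.6 over the 8 arrays) and NAS2 (10456.8 to 17219.8). Of the other root markers, IRT1 was at 729.1 to 1199.3, and the silicon transporters Lsi1 and Lsi2 at 366.5 to 472.6 and 1.7 to 6.3. The seed sums were carried by GLB (2874.0 to 3858.3) and GLUA-2 (999.1 to 1256.0). Of the leaf blade markers, RBCS1 was at 0.4 to 28.4 in all arrays. The signal filter left 5 of 6 leaf blade, 3 of 15 dividing cell, 3 of 10 seed and 4 of 5 root markers to be tested. None of these was called between noon and afternoon, and the dimmer markers could not be. In whole leaves, a change in the share of a cell type and a change of RNA within cells cannot be told apart.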

How the data were processed

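The authors extracted total RNA with TRIZOL, hybridised it to Affymetrix Rice Genome arrays and deposited MAS5 signal intensity from GCOS, linear and scaled to a target of 500; versions are not given in the sources used here. MAS5 takes each array by itself, and low signals are noisy. Of 57381 entries 57194 were rice probe sets; 22436 carried 1 gene ID, 95 several and 34663 none, and 3192 had a gene name. Probe sets averaging a signal of 100 or more over the arrays compared were kept, and log2(signal + 32) was fitted with limma 3.58.1 in R 4.3.3 with day as a block, and p-values were adjusted by the Benjamini-Hochberg method over all probe sets tested (threshold 0.05). On simulated data with the spread within time points, 14% of log2 changes of 0.5, 68% of changes of 1 and 100% of changes of 2 were recovered. Within day 1 and day 2, 20% and 22% of changes of 1 and 72% of changes of 2 were recovered. The simulated noise was independent between arrays, with no difference between days and no shared deviation of same-numbered replicates, so recovery in the real arrays may differ. Same-numbered replicates deviated together at every pair of times (correlations of 0.387 to 0.551), and the labels name no shared batch. The main fits did not pair them, and the replicate number entered as a block only in alternative fits. The number of arrays limits the precision. Genes were named by rule, 1 probe set each: the 15 largest rises and falls without overlap, all clock genes, up to 4 members of each other list, the 6 largest leaf differences, the 8 largest gaps at 40 h and the 4 loci measured by RT-PCR. Members and the 31 lists were chosen with earlier results of these data known. The files carry no sequence or genome build, and no coordinates are given. The comparisons between days and between leaves used the same test, and alternatives changed the constant, filter, scaling, blocks and arrays.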

Additional observations from a re-analysis of the deposited data

Results flagged for a closer look

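In 13 of the 154 groups of 4 signals examined for the named genes, 1 array stood apart from the other 3 by Dixon's criterion. For 4 like signals chance meets it in about 1 group in 20, but each group spans 2 days and 8 genes were named for their gaps at 40 h. The count can thus not be set against that rate. In 11 of the 13 the array was 40 h replicate 1. Its signal was below the other afternoon arrays for LEA19 (509.0), RAB16B (98.3), ABA8OX1 (101.2), OsPCL1 (388.9), AP25 (1420.9) and OsITPK3 (2228.8), and above them for OsLHY (4202.2), OsPM19L1 (5258.5), OsPPDKB (5017.3), OsPRR73 (10751.6) and OsSWEET1b (2278.7). The others were LOC_Os09g06464 at 36 h replicate 2 (716.8, below the other noon arrays) and OsCIPK06 at 16 h replicate 1 (504.1, below the other afternoon arrays). The library labelled 40 h replicate 2 was not apart in any of these groups. The array closest to it, 16 h replicate 2, is in the same afternoon groups, so this criterion could hardly single it out. Which of the 40 h arrays is unusual cannot be read from these counts.

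The day 2 difference of the unnamed gene with ID 4343628 exceeded that of day 1 by 3.54. For 33 named genes the afternoon difference itself differed between leaves. The seedling value was above the flag leaf value for OsHox24 (4.16), OsCRSH2 (3.79), IMCEL2 (3.56), OsVIT2 (3.05), LOC_Os02g01590 (2.84), OsCIPK06 (2.76), OsSWEET2b (2.39), OsDhn1 (1.96), rab25 (1.76), OsLHY (1.54), AP25 (1.41), OsTIP3 (1.29), BASS3 (1.16), GI (1.11), OsSWEET1a (1.10), 4CL.2 (1.09), OsPRR95 (1.04), OsPPDKB (0.96), HSFB4B (0.91), LOC_Os09g06464 (0.85), OsAMT1;1 (0.75), LOC_Os08g34210 (0.74) and OsPIP2;7 (0.73). It was below the flag leaf value for PORA (-4.54), OsTIP4;1 (-2.92), GER6 (-2.07), the catalase catA (-1.97), EXPB11 (-1.95), LIR1 (-1.79), LOC_Os07g07320 (-1.34), OsPDIL1-1 (-1.24), GluTR (-1.05) and OsPPT2 (-1.03), all in log2 units.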

How the results depend on the processing

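The count of called probe sets depended on the arrays and the filter more than on the scaling. For afternoon against noon (731 calls) it was 294 with no filter on signal, 515 with a filter at 50, 763 at 200, 696 and 745 with constants of 16 and 64, 726 after quantile normalization, 1427 with array weights (the lowest weight, 0.26, for 40 h replicate 1) and 1966 with the spread taken from all 20 seedling arrays. Leaving out 1 array gave 247 (36 h replicate 2) to 1514 (40 h replicate 1). With the replicate block the counts were 1230 for this comparison, 206 within day 1, 534 within day 2 and 5346 for the leaf difference; among named genes not called otherwise it called PORA, OsPSAG and LOC_Os07g22930, and no named gene lost its call. Leaving out 1 array gave 0 to 1 calls within day 1, 32 to 766 within day 2, 0 to 85 for the difference between days, which was also 0 after quantile normalization, and 2556 to 3388 for the leaf difference.

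Of the 50 named genes called between noon and afternoon, 27 were called whichever of the 8 arrays was left out. All direction changes were in genes that were not called. Leaving out 1 array gave log2 differences of -0.99 to 0.69 for LEA19, -0.89 to 1.09 for RAB21, -0.19 to 1.52 for RAB16B, -0.40 to 0.15 for rab25, -0.18 to 0.071 for OsPRR73 and -0.10 to 0.038 for RCABP89; the first value is without 40 h replicate 2 and the second without 40 h replicate 1 for LEA19, RAB21, RAB16B and rab25. Array weights gave 0.30 for LEA19, 0.61 for RAB21 and 0.061 for rab25. Without both 40 h arrays, which was chosen after seeing the data like the day 1 exclusions, the values were 0.37 for LEA19, 1.01 for RAB21, -0.12 for OsPM19L1 and -0.35 for OsVIT2. The causes were not tested, beyond the fewer arrays or the larger number of probe sets that some settings hold. In dim probe sets (signals under 100) changes are understated.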
